A study of Homo sapiens with 8 samples.

Results

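MIR22HG and WDR81 are neighbouring genes on chromosome 17 that begin next to each other and are read in opposite directions. Their chromatin was followed in the 79 windows, of 256141 in the deposited FAIRE-seq table, whose first base lies between 1612001 and 1645000 on chromosome 17 (hg19). This stretch was chosen by measured values: it had been selected on its loss of signal with AIRE induction in these same libraries. The changes with AIRE induction given here are therefore a description and carry no test of their own. Etoposide did not choose the stretch and was tested, as was its interaction with AIRE induction. Both use the libraries that entered the choice, so a share of windows with a small p is not independent of it.

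The libraries came from AIRE-Tet cells, a human embryonic kidney (HEK293) line with the Tet-On Advanced system in which doxycycline switches on an AIRE transgene. The 4 groups had 2 independent biological replicates each: untreated cells (Control), cells with 1.5 µM doxycycline (Dox), cells with 2 µM etoposide for 24 h (Etop), and cells that received both, with etoposide added after 24 h of induction (DoxEtop). All groups carry the transgene, and doxycycline in cells without it was not analysed here, so effects of the drug and of AIRE cannot be told apart. The sample details used here do not give the length of induction in Dox. A difference in induction time therefore cannot be told apart from etoposide where DoxEtop is compared with Dox, or in the interaction. Column totals of the table ran from 4489871 to 8275911, and levels are CPM (counts relative to the column total after TMM scaling). The table holds windows without gene names, so the identity of the cells was not checked against marker genes.

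MIR22HG gives rise to a long noncoding RNA whose transcript also carries the hairpin of the microRNA miR-22. WDR81 encodes a WD-repeat protein that works in endosomal trafficking and autophagy, and its inherited loss causes a cerebellar syndrome. Start sites of active genes usually lie in short stretches with few nucleosomes. FAIRE enriches such DNA, since DNA free of crosslinked nucleosomes stays in the aqueous phase when fixed chromatin is extracted with phenol. AIRE is a regulator of transcription known from the thymus, and etoposide traps topoisomerase II on broken DNA. A level averages all cells of a culture, so fewer cells with open chromatin and less openness in each cell cannot be told apart.

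The RefSeq promoters of both genes (GRCh38.p14, 250 bases before to 50 bases after the start) show how closely the starts face each other. MIR22HG lies on the minus strand and WDR81 on the plus strand. Their promoters, shown 5′ to 3′ along each gene's own strand, are the same DNA over the 188 bases in capitals, read in opposite directions.

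MIR22HG: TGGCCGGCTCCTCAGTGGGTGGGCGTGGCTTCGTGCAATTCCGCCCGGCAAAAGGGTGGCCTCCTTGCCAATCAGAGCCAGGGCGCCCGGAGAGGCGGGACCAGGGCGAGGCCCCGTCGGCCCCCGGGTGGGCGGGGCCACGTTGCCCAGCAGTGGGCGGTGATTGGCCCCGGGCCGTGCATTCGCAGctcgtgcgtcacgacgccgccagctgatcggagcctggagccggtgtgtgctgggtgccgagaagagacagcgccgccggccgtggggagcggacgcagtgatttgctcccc

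WDR81: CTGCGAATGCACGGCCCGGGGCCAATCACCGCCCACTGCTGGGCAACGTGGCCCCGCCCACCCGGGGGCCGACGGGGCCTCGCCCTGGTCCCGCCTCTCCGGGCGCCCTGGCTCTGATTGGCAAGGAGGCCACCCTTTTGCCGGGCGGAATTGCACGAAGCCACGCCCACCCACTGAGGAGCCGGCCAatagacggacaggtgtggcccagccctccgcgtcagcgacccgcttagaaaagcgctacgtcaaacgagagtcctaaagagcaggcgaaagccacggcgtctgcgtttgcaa

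The shared stretch is 73.4% G and C with 18 CpG dinucleotides. On its plus strand, capitals now mark the matches, on either strand, to the CCAAT box (CCAAT, 2 matches) and the GC box (GGGCGG, 3 matches).

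Shared: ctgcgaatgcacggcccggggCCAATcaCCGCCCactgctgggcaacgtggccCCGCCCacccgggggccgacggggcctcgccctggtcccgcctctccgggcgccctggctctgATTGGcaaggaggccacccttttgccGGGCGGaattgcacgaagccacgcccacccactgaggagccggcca

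Over 300 bases, the MIR22HG promoter held 32 CpG dinucleotides and the facing WDR81 promoter 30, against a median of 14 over 35116 RefSeq promoters. At least 1 GC box occurs in 45% of those promoters and at least 1 CCAAT box in 34.6%. Neither promoter had a match to the TATA box (TATAAA), the E-box (CACGTG), the ETS motif (CCGGAAG), the cyclic AMP response element (TGACGTCA), the AP-1 motif (TGANTCA) or the NRF1 motif on either strand. RefSeq lists another WDR81 promoter, which had 33 CpG dinucleotides, 3 GC boxes, 0 CCAAT boxes and 2 E-boxes, an element found in 7.26% of promoters. These matches describe letters only. In the RefSeq gene order TLCD2 comes before MIR22HG and SERPINF2 after WDR81. No hg19 annotation was used, so which window holds which start site was not established, and regions are named by number and position. The microRNA carried by the MIR22HG transcript is shown for reference with its seed, bases 2 to 8, in capitals.

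hsa-miR-22-3p: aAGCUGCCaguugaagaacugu

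The 79 windows, each 150 bp wide and placed every 50 bp, fell into 4 regions once windows no more than 100 bp apart were joined. Region 1 spans 1613301 to 1614150, region 2 spans 1617101 to 1618900, region 3 spans 1619351 to 1620700 and region 4 spans 1627551 to 1628550. Within them the windows formed 8 unbroken runs, a division made after seeing the data. Run 1 is region 1. Runs 2, 3 and 4 make up region 2 and span 1617101 to 1617850, 1617901 to 1618300 and 1618401 to 1618900. Region 3 holds run 5 (1619351 to 1620250) and run 6 (1620351 to 1620700), and region 4 holds run 7 (1627551 to 1628200) and run 8 (1628201 to 1628550). The nearest windows of the table outside the stretch start 24.6 kb before and 37.4 kb after its outermost windows. The one before, at 1588651, had 2.65 and 2.85 CPM in Control and 2.10 and 2.65 CPM in Dox. In Etop it had 3.59 and 3.07 CPM and in DoxEtop 3.17 and 2.57 CPM. The one after, at 1665751, had 3.25 and 3 CPM in Control and 3.43 and 4.41 CPM in Dox. It was lower in Etop, at 1.58 and 1.10 CPM, and had 2.43 and 2.97 CPM in DoxEtop.

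**Figure D1:**
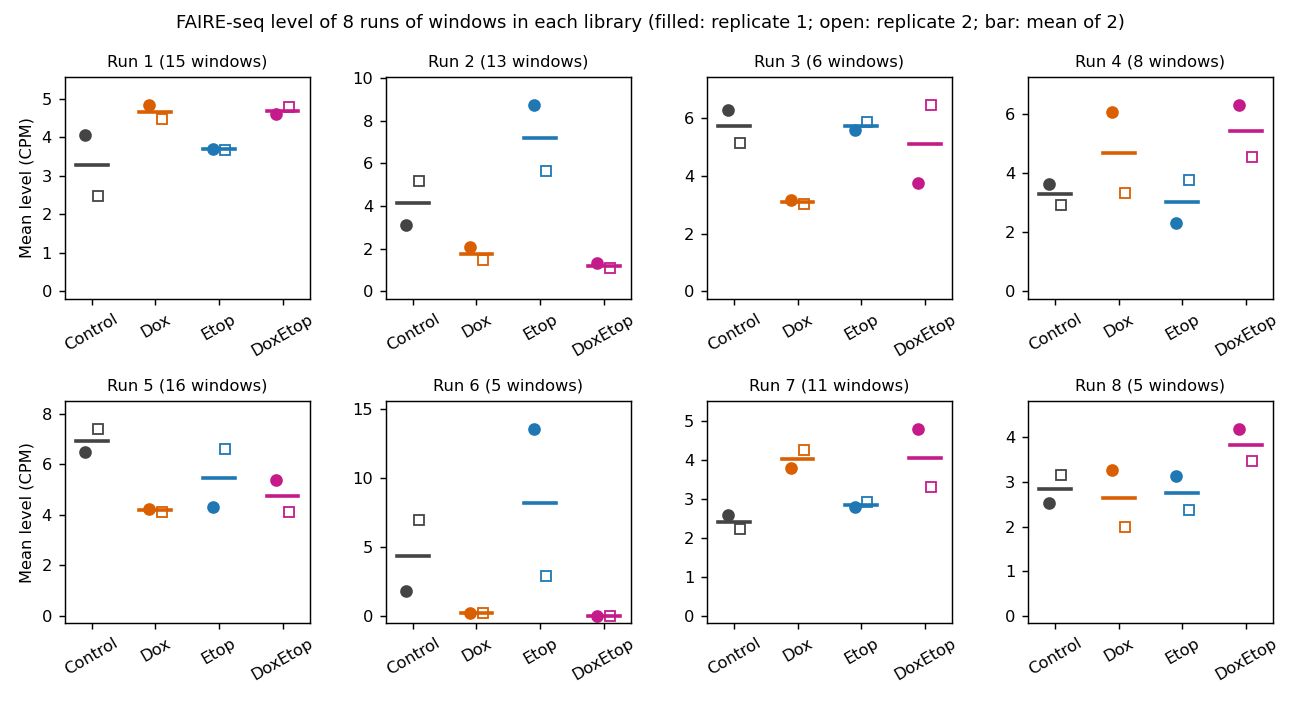
Mean FAIRE-seq level (CPM, y axis from about 0) of each of the 8 runs of windows, by treatment group on the x axis, with 1 point per replicate and a bar at the mean of 2. Runs 2 and 6 are low in all 4 induced libraries, and run 6 is highest in Etop replicate 1, at 13.5 CPM.

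Region 3 had the highest mean level of the stretch. It stood at 5.36 and 7.28 CPM in Control, 6.52 and 5.72 CPM in Etop, 3.28 and 3.18 CPM in Dox, and 4.10 and 3.14 CPM in DoxEtop. The 4 libraries without induction, at 5.36 to 7.28 CPM, lay above all 4 induced libraries, at 3.14 to 4.10 CPM. In order, Control (6.32 ± 1.36 CPM, SD, n = 2) and Etop (6.12 ± 0.562 CPM) differed by less than either SD. DoxEtop (3.62 ± 0.684 CPM) and Dox (3.23 ± 0.068 CPM) differed by less than the SD of DoxEtop but by more than that of Dox. Regions 2, 1 and 4 had 2.35 to 6.14, 2.48 to 4.83 and 2.51 to 4.59 CPM.

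With AIRE induction, signal was lower at 20 of the 79 windows and higher at 2, by edgeR over all 8 libraries with etoposide as the other factor. That is 25.3% and 2.53% of the stretch, beside 6.17% lower and 1.27% higher over the whole table. Since this contrast selected the stretch, nothing is read from that count. The 20 lower windows were 9 of 13 in run 2, 1 of 6 in run 3, 5 of 16 in run 5 and all 5 in run 6. The 2 higher windows were 1 in run 1 and 1 in run 4, and 0 higher calls remained with the replicate number as a block. The median log2 fold change over the stretch was 0.11, beside 0.04 over the table. In the 469 windows within 500 kb on either side, 6 were lower and 16 higher, with log2 fold changes from -1.57 to 1.60. In the stretch they ran from -6.20 to 1.27.

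Run 6, at the end of region 3 on the side of higher coordinates, was nearly empty in the induced libraries. Its mean level was 0.191 and 0.176 CPM in Dox and 0 CPM in both DoxEtop libraries. Without induction it was 1.76 and 6.95 CPM in Control and 13.5 and 2.89 CPM in Etop. All 4 induced libraries therefore lay below all others, but the others spread widely among themselves. Etop replicate 1 alone held 55.3% of all counts in the run and Control replicate 2 held 27.3%, against 7.76% and 8.59% in their partner replicates.

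In that run, the window at 1620551 held 11 and 28 counts in Control, 89 and 12 in Etop, 1 and 0 in Dox, and 0 and 0 in DoxEtop. Pooled over libraries it was 107-fold lower with induction, with a 95% exact binomial counting interval of 18.8 to 4240. That ratio rests on 1 count in the induced libraries, and without Etop replicate 1 it was 52.7 (9.04 to 2120). At 1620501 the counts were 16, 45, 107 and 16 without induction and 1, 1, 0 and 0 with it. The pooled level there was 70.1-fold lower (95% counting interval 19.1 to 583), or 39.8-fold without Etop replicate 1 (10.6 to 334). The windows at 1620351 and 1620401 had ratios of 54.1 (14.7 to 451) and 65.5 (17.9 to 545), which were 36.2 and 41.9 without that library. Over the whole table only 7 windows, in 2 regions, had a log2 fold change at or below the -5.46 of the least changed window of this run, and 5 of those 7 are the run itself. Since this contrast selected the stretch, that rank restates the choice, and the estimates of the run rest on 0 or 1 counts in each induced library. The intervals above cover counting error only. The calls in run 6 depended on the tool and the scaling: limma-voom called 0 of its windows, at a median log2 fold change of -4.93, and loess offsets along the mean log count, added after seeing the data, called 0 at a median of -0.49, against -5.82 as reported. In Dox vs Control the same offsets turned the median of the run from -4.40 to 0.87.

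**Figure D2:**
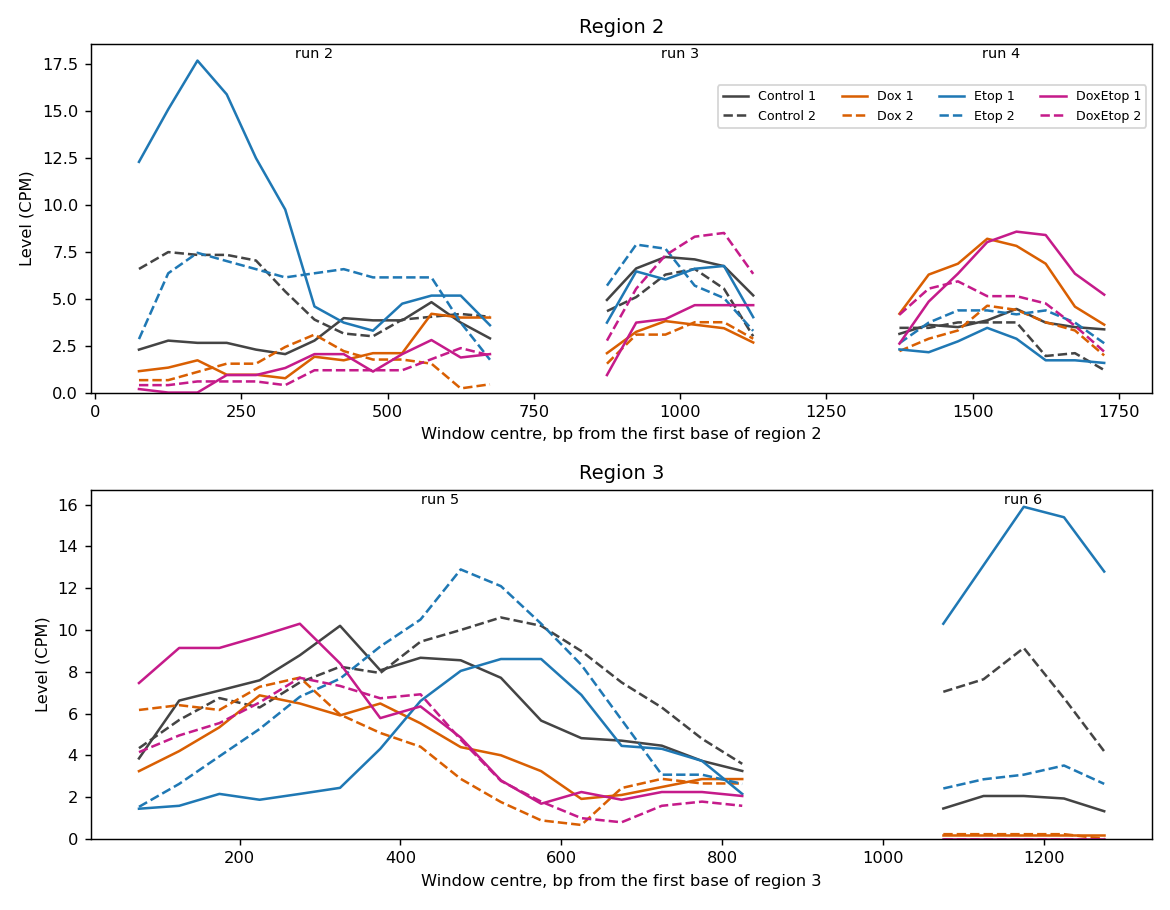
FAIRE-seq level (CPM, y axis) of each window against the distance of its centre from the first base of region 2 (top) or region 3 (bottom), in bp, with 1 line per library (solid: replicate 1; dashed: replicate 2) and gaps where the table holds no window. Etop replicate 1 reaches 17.7 CPM in run 2 and 15.9 CPM in run 6, whereas run 5 has its highest window at lower distances in the induced libraries.

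Run 2, at the start of region 2, was also low in the induced libraries. Its mean level was 3.12 and 5.18 CPM in Control, 8.74 and 5.63 CPM in Etop, 2.07 and 1.46 CPM in Dox, and 1.33 and 1.07 CPM in DoxEtop. Every library without induction was above every induced one, at a ratio of 3.83 between the means. The mean log2 CPM of runs 2 and 6 correlated at Pearson r = 0.974 over the 8 libraries, given as a description, since both runs come from the same libraries. In its 6 windows of lowest coordinate, Etop replicate 1 held 68 to 123 counts and the induced libraries 0 to 11.

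Counts at 1617151 were 23 and 50 in Control, 105 and 29 in Etop, 7 and 3 in Dox, and 0 and 2 in DoxEtop. Its log2 fold change with induction over all 8 libraries was -3.62 (SE 0.48). The log2 fold change was -2.29 (SE 0.601) in cells without etoposide. In cells with etoposide, where DoxEtop had 2 counts in all, the pooled level was 60.5-fold lower (95% counting interval 16.4 to 505), or 33.1-fold without Etop replicate 1 (8.38 to 286). The difference between the changes did not pass (interaction, edgeR adjusted p = 1). With limma-voom 0 windows of run 2 were called. Run 3, next to it, was less uniform, with 6.30 and 5.14 CPM in Control, 5.60 and 5.88 CPM in Etop, 3.15 and 3.01 CPM in Dox, and 3.76 and 6.46 CPM in DoxEtop. There the groups with and without induction overlapped.

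Run 5, the broad peak of region 3, was not lost as a whole but differed along its length. Its mean level was 6.49 and 7.39 CPM in Control, 4.33 and 6.60 CPM in Etop, 4.24 and 4.12 CPM in Dox, and 5.39 and 4.12 CPM in DoxEtop, so that the groups with and without induction overlapped. Over its last 8 windows the levels were 5.36 to 7.75 CPM without induction and 2.00 to 2.98 CPM with it. Over its first 8 windows they were 2.82 to 7.62 CPM and 5.51 to 8.28 CPM. In region 3 as a whole, the window with the most counts started at 1619501 in Dox replicate 1 and at 1619551 in the other induced libraries, against 1619601 and 1619801 in Control and 1620451 and 1619751 in Etop. The count-weighted centre of run 5 lay 413 and 453 bp from its start in Control and 509 and 462 bp in Etop, against 394 and 348 bp in Dox and 329 and 350 bp in DoxEtop. The induced libraries thus had their signal further toward the low-coordinate side, by 104 bp on average (355 ± 27.6 against 459 ± 39.5 bp, SD, n = 4 each). The centre and the split of the run were not planned, and this contrast selected the stretch, so the shift is a description.

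At 1619851, a window in the last 8 of run 5, counts were 47 and 68 in Control, 60 and 47 in Etop, 17 and 4 in Dox, and 9 and 9 in DoxEtop. Its log2 fold change with induction was -2.15 (SE 0.328). At 1619701, the window of the stretch with the highest mean level, Control had 8.67 and 9.44 CPM, Etop 6.60 and 10.5, Dox 5.53 and 4.41, and DoxEtop 6.34 and 6.92. The arms overlapped there, with a log2 fold change of -0.60 (SE 0.252). The highest windows of regions 1, 2 and 4, at 1613651, 1618051 and 1627851, had log2 fold changes of 0.41 (SE 0.274), -0.39 (SE 0.281) and 0.56 (SE 0.334), and none of these 4 windows was called.

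Other parts of the stretch were at like or higher levels with induction. Run 1 was at 4.05 and 2.48 CPM in Control, 3.69 and 3.67 CPM in Etop, 4.83 and 4.48 CPM in Dox, and 4.59 and 4.77 CPM in DoxEtop. Run 7 was at 2.22 to 2.91 CPM without and 3.29 to 4.78 CPM with induction. In both runs the induced libraries lay above all others, although only 1 window of run 1 and 0 of run 7 were called. In run 4 the arms overlapped, at 2.32 to 3.75 and 3.31 to 6.30 CPM, as they did in run 8, at 2.37 to 3.15 and 1.98 to 4.18 CPM.

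The 3 windows with the highest log2 fold change were at 1613401, 1613301 and 1618651. At 1613401 Control had 1.57 and 1.05 CPM, Etop 1.01 and 3.51, Dox 4.77 and 3.53, and DoxEtop 3.92 and 4.15, a log2 fold change of 1.27 (SE 0.416). The window at 1613301 had 1.18 (SE 0.418) and was not called. At 1618651, in run 4, Control had 3.73 and 1.95 CPM, Etop 1.72 and 4.38, Dox 6.87 and 3.75, and DoxEtop 8.40 and 4.75, a log2 fold change of 1.03 (SE 0.335). Neither call was stable. That at 1618651 was lost under 11 alternatives, among them DESeq2, limma-voom, the replicate block and leaving out Control replicate 2, Dox replicate 1, Etop replicate 1 or DoxEtop replicate 1. That at 1613401 was lost under 10, among them limma-voom, the block and leaving out any 1 library other than Etop replicate 2.

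The change was also taken apart by etoposide treatment. Without etoposide (Dox vs Control), 9 of 79 windows were lower and 0 higher (0.848% and 0.0156% of the table): 1 in run 2, 3 in run 5 and all 5 in run 6. With etoposide (DoxEtop vs Etop), 15 were lower and 2 higher (2.43% and 0.45% of the table), of which 6, 4 and 5 of the lower ones were in runs 2, 5 and 6 and both higher ones were at the start of run 5. At 1620451 Control had 17 and 61 counts and each Dox library 1 count, which put the pooled Dox level 25.5-fold lower (95% exact interval 6.81 to 214). At the same window Etop had 111 and 14 counts and both DoxEtop libraries 0. Taking 3 counts per library as the floor, the DoxEtop level was at least 18.8-fold lower, or at least 5.33-fold without Etop replicate 1. The Dox ratio rests on counted fragments and the DoxEtop value is a bound, so the 2 are not comparable in size. The fold changes of the run in DoxEtop vs Etop are estimates against 0 counts and have no upper bound.

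**Figure D3:**
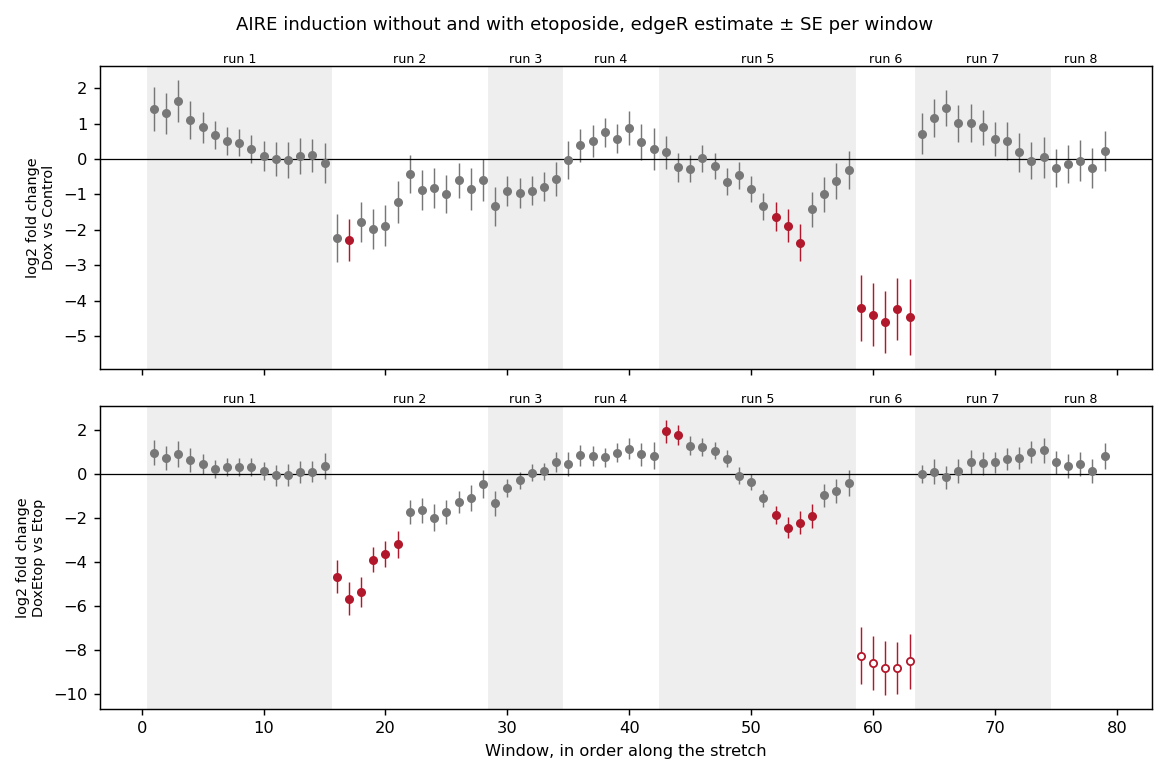
Log2 fold change with AIRE induction (y axis, edgeR estimate ± SE) for each of the 79 windows in order along the stretch (x axis), without etoposide (top) and with it (bottom). Red points passed an adjusted p of 0.05, and open points have 0 counts in both libraries of a group, so their height is no measure of size. The called losses sit in runs 2, 5 and 6 in both panels, with only 1 of them in run 2 in the top panel. Run 3, without calls, has a median of -0.89 in the top panel and -0.11 in the bottom one. At the first window of run 5 the value is 0.19 without etoposide and 1.96 with it.

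Which windows were called depended on the libraries and the tool. Left without Control replicate 2, Dox replicate 1 or Dox replicate 2, Dox vs Control called 0 windows of the stretch. The fits without those libraries also called 0 windows in the whole table, and the median log2 fold change of run 6 was -3.19, -4.31 and -4.34, against -4.40 with all libraries. With DESeq2 or limma-voom the stretch had 0 calls as well, at run 6 medians of -4.57 and -3.62. DoxEtop vs Etop called 7 windows without DoxEtop replicate 1 and 10 without Etop replicate 1. With both Control replicate 2 and Etop replicate 1 left out, an alternative added after seeing the data, induction lowered 10 windows over all libraries, among them 2 of 5 in run 6. The median log2 fold change of run 6 was then -4.37.

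Etoposide was not used to choose the stretch, and its tests called nothing there. For the main effect of etoposide, with AIRE induction as the other factor, 0 of 79 windows passed (0% of the table), and 4 (5.06%) had an unadjusted edgeR p under 0.05, beside 5.83% of all windows. DESeq2 and limma-voom called 0 of the stretch as well. The mean log2 CPM of the whole stretch was 1.90 ± 0.29 with and 1.85 ± 0.24 without etoposide (SD, n = 4 each), a difference of 0.05 that an exact permutation test over all 70 assignments did not separate (two-sided, p = 0.714, where the smallest possible is 0.0286). For the 8 runs the same test gave p = 0.343 to 0.943 (exact permutation test, adjusted p = 0.943 for each). It averages over induced and uninduced cells, so opposite differences cancel: in run 2, Etop lay above Control and DoxEtop below Dox, as the levels above show, and with 2 libraries a group no exact test within an arm can reach 0.05. The spread within each side also holds the difference with AIRE induction, so a small etoposide difference could be missed. Over the whole stretch, Etop was at 2.15 and 2.14 and Control at 2.00 and 2.07, whereas DoxEtop (1.73 and 1.58) and Dox (1.78 and 1.54) overlapped. The centre of run 5 lay at 413 ± 87 bp with and 402 ± 43.2 bp without etoposide (SD, n = 4 each; exact permutation test, p = 0.857). There too the spread holds the difference with induction, and the arms differed in direction, with Etop above Control and the mean of DoxEtop below that of Dox. The main-effect window with the smallest p was that at 1620551, where the log2 fold change of 1.39 (SE 0.56; edgeR adjusted p = 0.83) went to -0.22 without Etop replicate 1. That library held 89 of the 141 counts of the window. Without it the window would lie below 111 counts, the lowest total of any window in the table. Its etoposide difference is therefore not independent of its place in the table.

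In cells without AIRE induction (Etop vs Control), edgeR called 0 windows (0% of the table), and DESeq2 and limma-voom called 0 of the stretch. An unadjusted edgeR p under 0.05 was found at 13 windows (16.5%), beside 5.57% of the table and 5.54% within 500 kb. They were 5 windows of run 2 and 2 of run 6 at higher levels with etoposide, and 6 at the start of run 5 at lower levels. Overlapping windows share fragments, so these 13 make up only 3 places. The choice of the stretch used these same Control and Etop libraries, so the excess over the table is not independent of it. At the windows in runs 2 and 6, Etop replicate 1 was the highest library. Without it, those of run 6 would lie below 111 counts, the lowest total of any window in the table. Etop replicate 2 lay below Control replicate 2 at 1620501 and 1620551 in run 6 (3.51 and 2.63 against 6.74 and 4.19 CPM), so the groups overlapped. In run 2 they overlapped at some windows, such as 1617151 (6.36 against 7.49 CPM), but not at 1617201 (7.45 against 7.34 CPM). The smallest p was at 1619401 in run 5, where Control had 55 and 38 counts and Etop 11 and 12. In CPM these are 6.62 and 5.69 against 1.58 and 2.63, and the groups did not overlap, with a log2 fold change of -1.59 (SE 0.457; edgeR adjusted p = 0.863). Dox and DoxEtop had 4.20 and 6.40, and 9.14 and 4.95 CPM there.

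**Figure D4:**
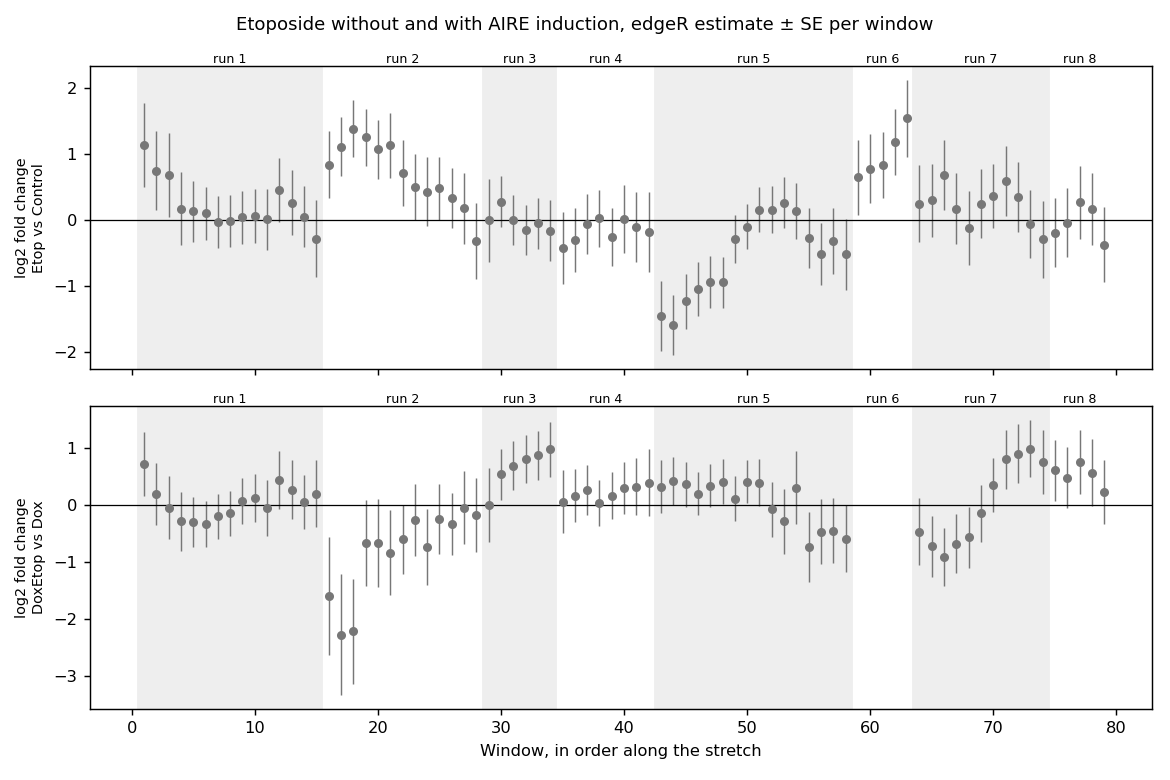
Log2 fold change with etoposide (y axis, edgeR estimate ± SE) for each window in order along the stretch (x axis), in cells without (top) and with (bottom) AIRE induction. Windows with at most 3 counts in every library of both groups (run 6 in the lower panel) are left out. No window passed an adjusted p of 0.05, and the lowest values of the upper panel are at the start of run 5, down to -1.59.

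In induced cells (DoxEtop vs Dox), edgeR called 0 windows (0% of the table) and DESeq2 and limma-voom called 0 of the stretch, while 4 (5.06%) had an unadjusted edgeR p under 0.05, beside 4.26% of the table. The smallest p was at 1617201 in run 2, where Dox had 9 and 5 counts and DoxEtop 0 and 3, so that few counts carry the difference (edgeR adjusted p = 1).

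The change with AIRE induction was also compared between cells with and without etoposide, by the interaction term. With edgeR it called 0 windows (0% of the table), and with DESeq2 and limma-voom 0 of the stretch. At 12 windows (15.2%) the unadjusted edgeR p was under 0.05, beside 4.14% of the table and 2.56% within 500 kb. Of the 12, 5 were in run 2, 6 at the start of run 5 and 1 in run 7. Overlapping windows share fragments here too, so windows within a run are not separate findings. Those in run 2 and at the start of run 5 lie in the same places as in Etop vs Control, and both comparisons use the same Etop and Control libraries. The choice of the stretch also rested on those libraries, so here too the excess over the table is not independent of it. At 1619401 the log2 fold change with induction was -0.23 (SE 0.41) without and 1.78 (SE 0.463) with etoposide, an interaction of 2.01 (SE 0.62; edgeR adjusted p = 1). At 1617201 the interaction had its smallest p (edgeR adjusted p = 1), with an estimate of -3.60 (SE 1.01) that rests on 0 and 3 counts in DoxEtop. That estimate was -2.81 without Etop replicate 1, which held 123 counts there against 34 in its partner. It moved further without a DoxEtop library, to -2.61 without replicate 1 and -7.48 without replicate 2. No difference between the changes with and without etoposide was thus detectable after adjustment over all windows.

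Over the 8 libraries, the region elsewhere in the table whose mean log2 CPM ran most like that of region 3 was on chromosome 17 from 41150051 to 41150900 (Pearson r = 0.991). It had 5.11 and 6.56 CPM in Control, 5.66 and 4.76 CPM in Etop, 2.97 and 2.31 CPM in Dox, and 2.89 and 2.64 CPM in DoxEtop. The next 4 were on chromosome 17 from 78623951 to 78624200 (r = 0.984) and, each at r = 0.981, on chromosome 10 from 71720951 to 71721100, chromosome 19 from 36359151 to 36362950 and chromosome 6 from 144416401 to 144417150. The one on chromosome 19, of 69 windows, had a much smaller range, 4.75 to 6.12 CPM. These 5 were picked from 35741 regions for their likeness, over 8 points from the same libraries, and carry no test.

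Windows with a pattern like that of run 6, but without its empty libraries, lay elsewhere too. A search added after seeing the data took the window at 1620551 and, from each other region, its most similar window. The closest was that on chromosome 7 from 100184101 to 100184250 (r = 0.996), with 4.70 and 7.34 CPM in Control, 10.5 and 6.14 in Etop, 2.67 and 2.43 in Dox, and 2.05 and 2.18 in DoxEtop. As at 1620551, Etop replicate 1 was highest and Control replicate 2 next. Windows on chromosomes 19 (36601751 to 36601900) and 14 (23235801 to 23235950) followed, both at r = 0.993 and both with Etop replicate 1 highest, at 9.62 and 10.8 CPM. Since the windows were picked for a pattern in which Etop replicate 1 is highest, these levels restate the choice.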

How the data were processed

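FAIRE-seq was measured in 8 libraries, 4 groups of 2. The authors deposited raw counts per window of 150 bp on hg19, per the file headers and the submitters' processing notes, which name Trim Galore, Bowtie2 and Bowtie. The sources used here do not say how fragments were counted, windows selected, duplicates treated or input used. Each window of the table held at least 111 counts over the 8 libraries, and those of the stretch 120 to 347, with a median of 174, so a window low in every library is not in the table. Since neighbouring windows overlap, 1 fragment may be counted more than 1 time, and a column total is not a library's depth.

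All 256141 windows entered edgeR's quasi-likelihood test (version 4.0.16, R 4.3.3, two-sided, TMM scaling), since filterByExpr left out 0. Calls are Benjamini-Hochberg adjusted p-values under 0.05. Main effects came from an additive model, with 5 residual degrees of freedom, and the other comparisons from 1 mean per group, with 4. A standard error is the log2 fold change divided by the root of its F. Log2 CPM used a prior count of 2. Pooled ratios use the TMM-scaled totals, with exact 95% binomial intervals, and a group at 0 counts was set to 3 counts per library. Replicates differed by more than sampling noise (chi-square per degree of freedom 1.83 to 3.10).

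Named windows were the highest of each region, the 3 lowest and 3 highest by the AIRE main effect, the smallest p of each etoposide comparison and the interaction (no window being called), and the 5 regions most like region 3. Other windows (1617151, 1619851, 1620351 and 1620401, and 1619351 in the call counts) were named after their values were seen. The members, lists and named rules were chosen with earlier results of these data known. Alternatives were other scalings, filters, tools, non-overlapping windows, a block on the replicate number and each library left out (limma 3.58.1, DESeq2 1.42.0).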

Additional observations from a re-analysis of the deposited data

How the results depend on the processing

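With AIRE induction, 22 windows of the stretch were called. The count was 12 among windows above the median CPM of the table, 8 of the non-overlapping windows, 2 with limma-voom, 13 with loess offsets fitted along the mean log count, 10 with Control replicate 2 and Etop replicate 1 both left out, and 16 to 22 with 1 library left out. Dox vs Control (9 windows) called 3 of the non-overlapping windows, 0 with limma-voom, 0 with DESeq2, 3 with those loess offsets, 0 with both libraries left out and 0 to 13 with 1 library left out. DoxEtop vs Etop (17 windows) called 5, 0 with limma-voom, 10 with those loess offsets, 4 with both left out and 7 to 21 with 1 left out. A library left out of a pair leaves 1 sample, assumed to vary like the other groups. Fewer windows were tested with the stricter selection and without overlap, and elsewhere the cause was not tested. Loess offsets along the mean log count and leaving out both libraries were chosen after seeing the data. With the former and with limma-voom, run 6 had 0 calls, and both limma-voom calls were in run 5. With the former the log2 fold change at 1620551 was 0.01 in place of -6.20. With loess offsets along average log CPM it was -6.12 and run 6 had 5 calls, so the axis of the loess fit changed the result. The mean log count is itself lowered by libraries near 0. The etoposide comparisons and the interaction called 0 windows of the stretch under all 18 alternatives. The difference in stretch level with etoposide ran from -0.05 to 0.16 with 1 library left out and did not pass under any of 13 alternatives. The replicate numbers did not pair the libraries (correlation of deviations -0.073 to 0.120 between groups). With the replicate number as a block, 20 windows were called for AIRE induction (20 lower, 0 higher), 6 for Dox vs Control and 16 for DoxEtop vs Etop, none for etoposide, and the etoposide difference in level was 0.05.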
